A study of Homo sapiens with 2 samples.

Results

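Transcripts of p53 target genes were compared between silica-exposed and unexposed HepG2 cells, a line derived from a human hepatoma (liver cancer) that carries wild-type p53. The 10 genes on the list (CDKN1A, GADD45A, BTG2, BBC3, FAS, TP53I3, TP53INP1, SESN1, GDF15 and MDM2) were chosen by symbol as well-known direct targets of p53, and 9 of them had a probe with a single gene symbol among the 18417 genes so named. BTG2 was not analysed here. The groups were HepG2 cells given amorphous silica nanoparticles (SiO2-NP) at 100 mg/L for 24 h, on 1 array, and control HepG2 cells, on 1 array. All cells grew in MEM medium. The labels give no particle size, vehicle or number of cultures. They state a time for the treated cells, and whether the control was harvested at the same time is not given.

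The protein p53 is a transcription factor that MDM2, an E3 ubiquitin ligase, keeps scarce in unstressed cells. DNA damage and other stresses release it from MDM2, after which it binds response elements in or near genes that halt the cell cycle, trigger cell death, repair DNA or adjust metabolism, and it also raises MDM2 itself, which closes a feedback loop. In liver cells that keep a functional p53, CDKN1A and MDM2 are among the genes usually read as signs of its activation. A response element is built of 2 half-sites, each with a core that starts with C, ends with G and has A or T at both inner positions.

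The sequences shown here are the stretches around such paired cores, because paired cores are what p53 is known to bind. Start-site windows from RefSeq (GRCh38.p14), from 250 bases before to 50 bases after each annotated start, were held for 8 of the 10 genes in 15 windows, and some genes have several starts. Each window was searched on both strands for 2 cores (each CAAG or CATG or CTAG or CTTG) separated by 6 bases of any kind. A pair was found in 3 of the 15 windows, 1 each of GDF15, FAS and SESN1, against 4.79% of 35116 windows of all genes. Counted by gene, 3 of 8 had a pair, against 5.85% of 27305 genes. A stretch of MDM2 is also shown, for comparison. It holds the pair CAAGNNNNNNCACG, whose second core differs from the searched letters and which occurred on either strand in 0.441% of all windows. The pattern was read from this MDM2 stretch itself, so its presence in MDM2 windows (2 of 4, overlapping or neighbouring) was fixed in advance. Each line gives 30 bases, 5′ to 3′ on the gene's strand, with the cores in capitals.
GDF15: acctgcacagcCATGcccgggCAAGaactc
FAS: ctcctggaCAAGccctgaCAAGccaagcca
SESN1: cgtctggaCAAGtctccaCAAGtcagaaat
MDM2: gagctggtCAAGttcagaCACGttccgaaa
The GDF15 stretch lies at chr19:18386178-18386207 on the plus strand, and its first core begins at base 32 of the transcript, so it lies past the start. The FAS stretch lies at chr10:88991304-88991333 on the plus strand, and the SESN1 stretch at chr6:109009013-109009042 on the minus strand. The MDM2 stretch lies at chr12:68808918-68808947 on the plus strand, before an internal start of the gene. No window of CDKN1A, BBC3, BTG2, TP53I3 or MDM2 held a pair of the searched cores, which says only that these letters are not in those windows. A match is a description of sequence and not a measured binding site.

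The array table holds 1 log2 intensity per probe and array, so a difference of 1 on this scale would be 2-fold. The difference given throughout is SiO2-NP minus control. Each group held 1 array, so no value has a replicate error, no test was possible, and every statement describes this pair of arrays. Over all 18417 genes the median difference was 0.01, and the central 95% ran from -0.37 to 0.40. All 9 measured genes lay above the level of the median gene (a mean log2 intensity of 7.26), which was used as a filter on level and does not show that a transcript was detected. Liver identity was checked first: all 9 measured hepatocyte and hepatoma markers (such as ALB, AFP and APOA1) passed that filter, with differences from -0.10 to 0.20, while 1 of 5 fibroblast, 1 of 4 leukocyte and 0 of 5 endothelial markers did. The leukocyte marker that passed was LYZ, at 13.27 in the SiO2-NP array and 13.23 in the control array.

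The p53 targets did not move as a block. TP53INP1 and BBC3 were more than 1.2-fold higher in the SiO2-NP array (1.2-fold is 0.26 on the log2 scale), none of the 9 was 1.2-fold lower, and none reached 1.5-fold in either direction. The background at 1.2-fold was 8.26% of all genes higher and 6.47% lower, and among the 9209 genes past the level filter 2.99% higher and 7.53% lower. At 1.5-fold it was 0.331% higher and 0.369% lower over all genes, and 0.141% higher and 0.25% lower past the level filter. Of the 9 genes, 5 lay above the control, 3 lay below it, and MDM2 was level to 2 decimals. MDM2 exceeded the control by less than rounding shows, so a strict count gave 6 above, and 5 with each array centred on its median. Of all genes 52.3% lay above and 47.6% below, and of those past the level filter 40.2% and 59.8%. The members had a median difference of 0.06, which was 0.10 with a running median by level subtracted, 0.11 with quantile normalization and 0.03 without TP53INP1. Their mean was 0.09. The members ran from -0.16 (FAS) to 0.45 (TP53INP1), so the best-known targets of the list, CDKN1A and MDM2, lay near its middle.

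**Figure D1:**
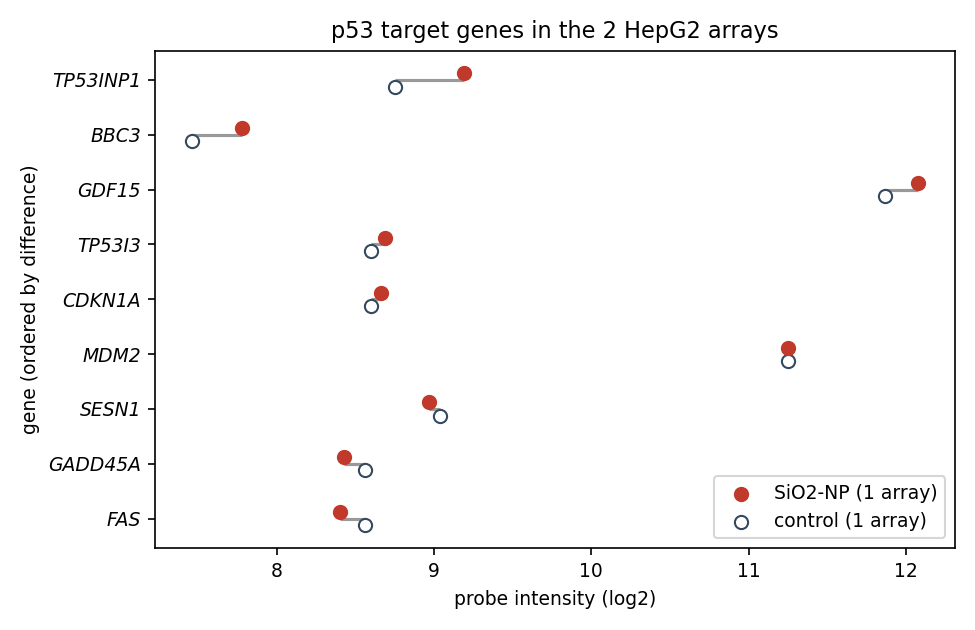
Log2 probe intensity of the 9 measured p53 target genes in the SiO2-NP array (filled) and the control array (open), 1 array each, ordered by the difference. TP53INP1, BBC3 and GDF15 show the widest gaps to the right, MDM2 shows none, and GADD45A and FAS lie to the left; probe intensities of different genes are not comparable along the axis.

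Among the genes that act in cell death, the members parted. TP53INP1 encodes a stress-induced nuclear protein that promotes cell death and takes part in autophagy. Its probe read 9.19 in the SiO2-NP array and 8.75 in the control array, a difference of 0.45 or 1.365-fold. Of all genes, 98.6% had a smaller or equal difference, and among the genes nearest to it in level the central 95% ran from -0.37 to 0.26. No other member of the 9 differed by as much in either direction.

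BBC3 encodes PUMA, a BH3-only protein that binds the anti-apoptotic BCL2 proteins and so sets off mitochondrial cell death. It read 7.78 in the SiO2-NP array and 7.46 in the control array, a difference of 0.32 or 1.249-fold. This placed it at percentile 95.1 of all genes, at the upper edge of its like-level neighbours (-0.40 to 0.32). FAS, the cell surface death receptor, was on the other side, at 8.40 in the SiO2-NP array and 8.56 in the control array, a difference of -0.16. TP53I3, a quinone oxidoreductase linked to reactive oxygen and cell death, read 8.69 in the SiO2-NP array and 8.60 in the control array, a difference of 0.09. FAS and TP53I3 both lay inside the span of their like-level genes.

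The genes of cell cycle arrest differed little. CDKN1A encodes p21, the inhibitor of cyclin-dependent kinases through which p53 stops the cell cycle. It read 8.66 in the SiO2-NP array and 8.60 in the control array, a difference of 0.06 or 1.042-fold. GADD45A, a growth arrest protein induced by DNA damage, was at 8.43 in the SiO2-NP array and 8.56 in the control array, a difference of -0.13. The 2 genes thus lay on opposite sides of the control, at percentiles 61.4 and 19.3 of all genes. Among their like-level genes the percentiles were 76.8 and 25.3.

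Feedback, metabolic and secreted targets covered the remaining range. MDM2 read 11.25 in both arrays, a difference of 0.00, and lay at percentile 47.8 of all genes and 58.7 of its like-level genes. SESN1, a sestrin that restrains the growth kinase mTORC1, read 8.97 in the SiO2-NP array and 9.04 in the control array, a difference of -0.06. GDF15, a secreted stress cytokine of the TGF-beta superfamily, read 12.08 in the SiO2-NP array and 11.87 in the control array. Its difference of 0.20 (1.153-fold) stayed short of 1.2-fold and lay at percentile 86.6 of all genes. Among its like-level neighbours it lay at percentile 95.6, inside their span (-0.32 to 0.28). The genes with a core pair shown above, GDF15, FAS and SESN1, thus had differences of 0.20, -0.16 and -0.06, and MDM2 had 0.00.

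**Figure D2:**
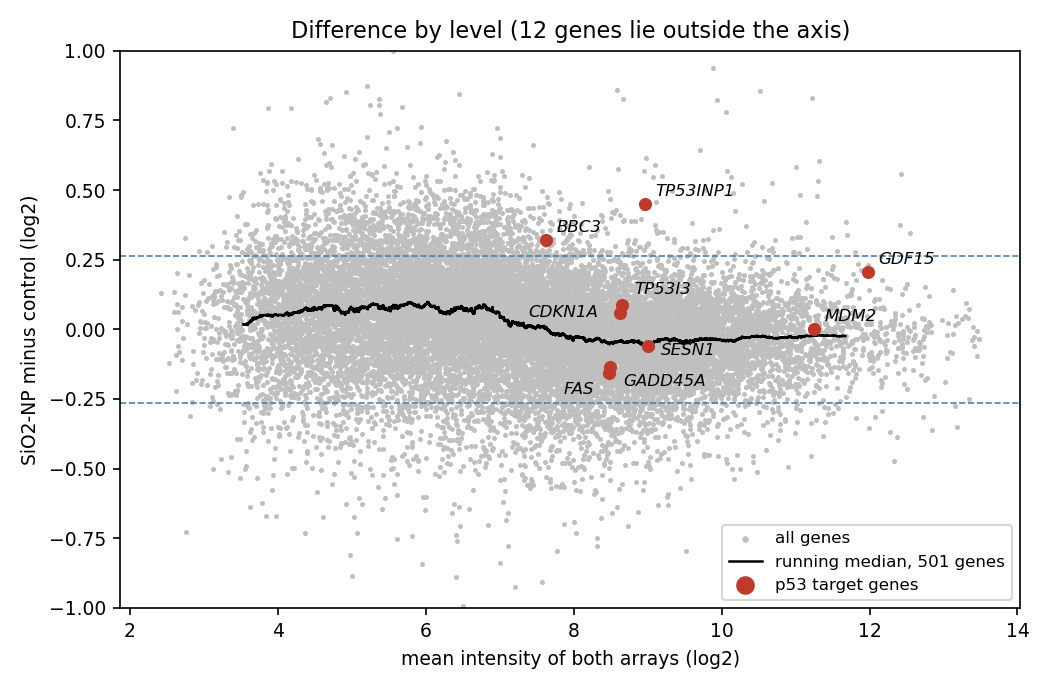
Difference between the SiO2-NP and control arrays (log2) against the mean log2 intensity of both arrays, 1 point per gene, with the running median by level as a line, 1.2-fold in either direction as dashed lines and the 9 p53 targets in red. TP53INP1 lies above most genes of its level, BBC3 just above the upper dashed line, and the other 7 between the dashed lines; 12 genes fall outside the vertical axis.

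A level-dependent trend ran through the arrays, as the plot of difference by level shows: the running median lay below 0 at the levels of most members. Subtracting it gave 0.51 for TP53INP1, 0.31 for BBC3, 0.23 for GDF15, 0.13 for TP53I3 and 0.10 for CDKN1A. The lower genes moved closer to 0 in the same step, with -0.09 for GADD45A and -0.11 for FAS, and SESN1 came to 0.00. Neither the count of members past 1.2-fold nor the gene at each end of the range changed.

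Relatives of the members were set beside them, since several belong to small families. TP53INP2, the paralogue of TP53INP1 that also acts in autophagy, was higher too, at 8.99 in the SiO2-NP array and 8.67 in the control array (0.32, or 1.249-fold). Both genes of that pair were therefore past 1.2-fold in the same direction. In the family of CDKN1A the relatives lay on both sides of the control. CDKN1B, which encodes the cell cycle inhibitor p27, was lower at 9.59 in the SiO2-NP array and 9.89 in the control array (-0.30), while CDKN1C, which encodes p57, was at 0.21.

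GADD45G, a stress-induced relative of GADD45A, read 6.57 in the SiO2-NP array and 6.17 in the control array (0.40), under the level filter, and GADD45B differed by 0.09. The sestrins differed by -0.06 for SESN1, -0.03 for SESN2 and -0.06 for SESN3, whose probe was under the level filter. With the running median subtracted they came to 0.00, -0.02 and -0.14. MDM4, the partner of MDM2 that blocks the activity of p53, differed by 0.15, under the level filter. Of the relatives of BTG2, a family of antiproliferative proteins, BTG1 differed by 0.00, BTG3 by 0.02 and BTG4, under the level filter, by 0.02. Of the 11 paralogues in all, 2 were at least 1.2-fold higher (TP53INP2 and GADD45G) and 1 at least 1.2-fold lower (CDKN1B), beside 8.26% and 6.47% of all genes, and their median was 0.02. CDKN1B fell short of 1.2-fold with quantile normalization, where none of the 11 was lower by that much.

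The family of BBC3 spread to both sides. Of the 8 BH3-only genes, 2 were at least 1.2-fold higher, BBC3 and BMF, and 2 at least 1.2-fold lower, BIK and PMAIP1, beside 8.26% and 6.47% of all genes. BMF, which senses loss of cell attachment, read 7.49 in the SiO2-NP array and 7.07 in the control array (0.42). PMAIP1 encodes NOXA, itself a p53 target, and read 6.25 in the SiO2-NP array and 6.58 in the control array (-0.32). PUMA and NOXA transcripts thus differed in opposite directions, although the PMAIP1 and BIK probes lay under the level filter. BIK differed by -0.36, BAD by 0.17, HRK by 0.12, BID by -0.09 and BCL2L11 by -0.12.

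Transcripts of the BCL2 family proteins that PUMA and NOXA act on stayed within 1.2-fold in all 6 measured genes. The effectors BAX and BAK1 differed by 0.05 and 0.09. The anti-apoptotic genes BCL2, BCL2L1, MCL1 and BCL2A1 differed by 0.16, 0.08, -0.01 and -0.12, and the BCL2 and BCL2A1 probes lay under the level filter. In a list for the pathway of FAS, from its ligand to the caspases, none of 7 measured genes reached 1.2-fold either, and 5 lay below the control. That list also held APAF1 and CASP9, which act in mitochondrial cell death. Of all genes, 8.26% were at least 1.2-fold higher and 6.47% lower, so most genes stayed within that fold. Below the control lay 47.6% of all genes and 59.8% of those past the level filter. The caspase 8 inhibitor CFLAR differed by -0.25, the apoptosome component APAF1 by -0.18, the initiator caspase CASP8 by -0.15 and the adaptor FADD by -0.09.

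**Figure D3:**
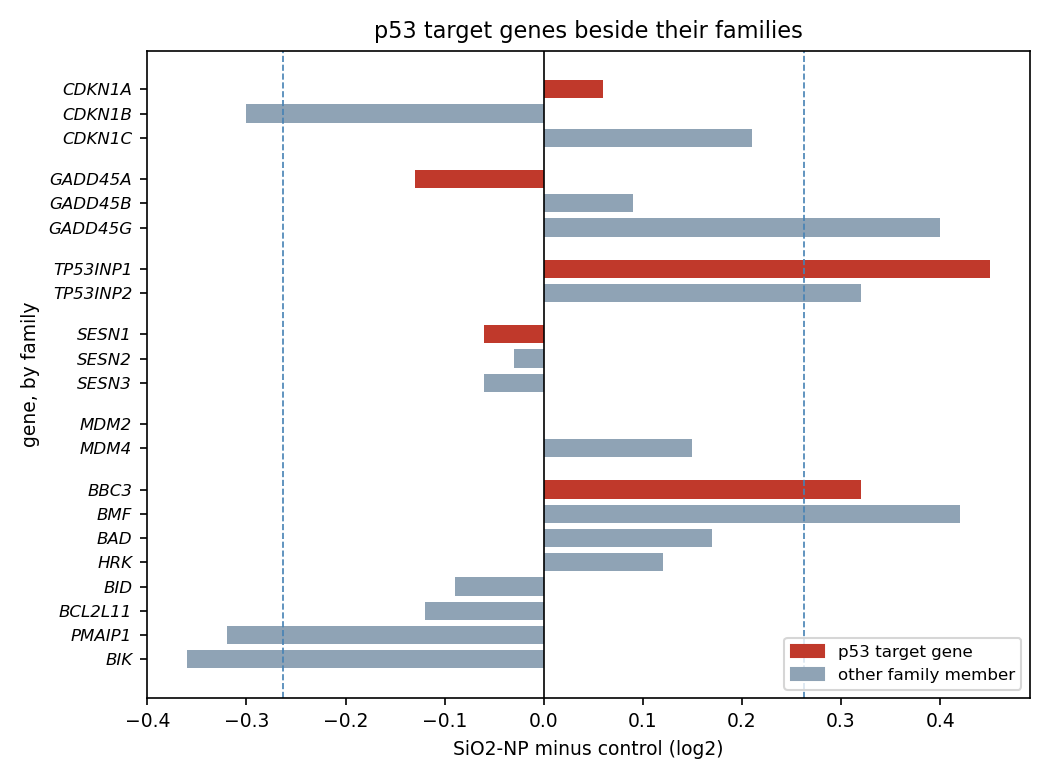
Difference between the SiO2-NP and control arrays (log2) for p53 target genes (red) and their relatives (grey), grouped by family, with dashed lines at 1.2-fold. TP53INP1 and TP53INP2 both extend to the right past 1.2-fold, MDM2 has no visible bar because its difference is 0.00, and the BH3-only genes run from BMF at 0.42 to BIK at -0.36.

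A wider list of 37 further p53 targets, of which 34 were measured, had a median difference of -0.01, beside 0.01 over all genes. Of the 34, 28 passed the level filter, and the median over all genes past that filter was -0.03. None was at least 1.2-fold higher and 4 were at least 1.2-fold lower: PLK2, PMAIP1, TRIAP1 and RPS27L. Of all genes 8.26% were higher and 6.47% lower by that fold, and of those past the level filter 2.99% and 7.53%. PLK2, a polo-like kinase, read 6.73 in the SiO2-NP array and 7.08 in the control array (-0.35), under the level filter. TRIAP1, a small survival factor, read 9.39 in the SiO2-NP array and 9.70 in the control array (-0.32). RPS27L, a ribosomal protein homologue, read 8.06 in the SiO2-NP array and 8.34 in the control array (-0.28), and it differed by -0.24 after the running median was subtracted, short of 1.2-fold.

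The largest positive differences in the wider list were 0.23 for SFN, which encodes the arrest protein 14-3-3 sigma, and 0.22 for CD82. CD82 is a membrane protein, and its probe lay under the level filter. SFN passed 1.2-fold in 2 other scalings, at 0.27 with the running median subtracted and 0.29 with quantile normalization. By role, 7 of 10 further cell death targets and 3 of 4 arrest targets lay above the control. So did 52.3% of all genes and 40.2% of those past the level filter. Of the 5 DNA repair targets, 1 lay above it, and their median was -0.05. The 3 further feedback targets all lay below the control, as did 47.6% of all genes and 59.8% of those past the level filter. They differed by -0.12 for PPM1D, the phosphatase that reverses damage signalling, -0.13 for CCNG1 and -0.20 for the ubiquitin ligase RCHY1. With the running median subtracted these values were -0.08, -0.11 and -0.21.

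Upstream, 21 of 23 listed p53 regulators were measured, and none reached 1.2-fold. The p53 transcript itself was not analysed here. The median over the regulators was -0.05, with 15 below the control and 6 above, beside 47.6% of all genes below and 59.8% of those past the level filter. The median was -0.02 with the running median subtracted and -0.01 with quantile normalization, where 11 lay below and 10 above. The damage kinases CHEK1, ATM and ATR differed by -0.23, -0.19 and -0.19, and RPL11, a ribosomal protein that restrains MDM2, by -0.19. PPP1R13L, which encodes the p53 inhibitor iASPP, differed by 0.20, the highest of the regulators, and CDKN2A by 0.17, under the level filter.

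Genes that p53 lowers indirectly, through p21 and the DREAM repressor complex, were mostly lower in the SiO2-NP array. Of 29 measured genes of that list, all past the level filter, 26 lay below the control, against 59.8% of the genes past the filter. Their median was -0.13, beside -0.03 over those genes. It was -0.09 with the running median subtracted, where 24 lay below the control, and -0.08 with quantile normalization, where 23 did. At least 1.2-fold lower were 5 genes (7.53% of genes past the filter were), and 1 of them (0.25% at 1.5-fold), the mitotic kinase CDK1, was past 1.5-fold, at 8.82 in the SiO2-NP array and 9.45 in the control array (-0.63). The others were the spindle checkpoint kinase TTK (-0.50), the kinetochore motor CENPE (-0.43) and the cyclins CCNB1 (-0.30) and CCNA2 (-0.29). Both cyclins fell short of 1.2-fold with the running median subtracted or with quantile normalization, which left 3 genes.

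Above the control in that list were AURKB (0.13), BIRC5 (0.08) and PRC1 (0.04). The p21 transcript differed by 0.06, and the p21 protein was not measured. Whether the lower cell cycle transcripts go with p21 or with other regulators was not tested. CHEK1 is counted in both this list and that of the regulators.

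**Figure D4:**
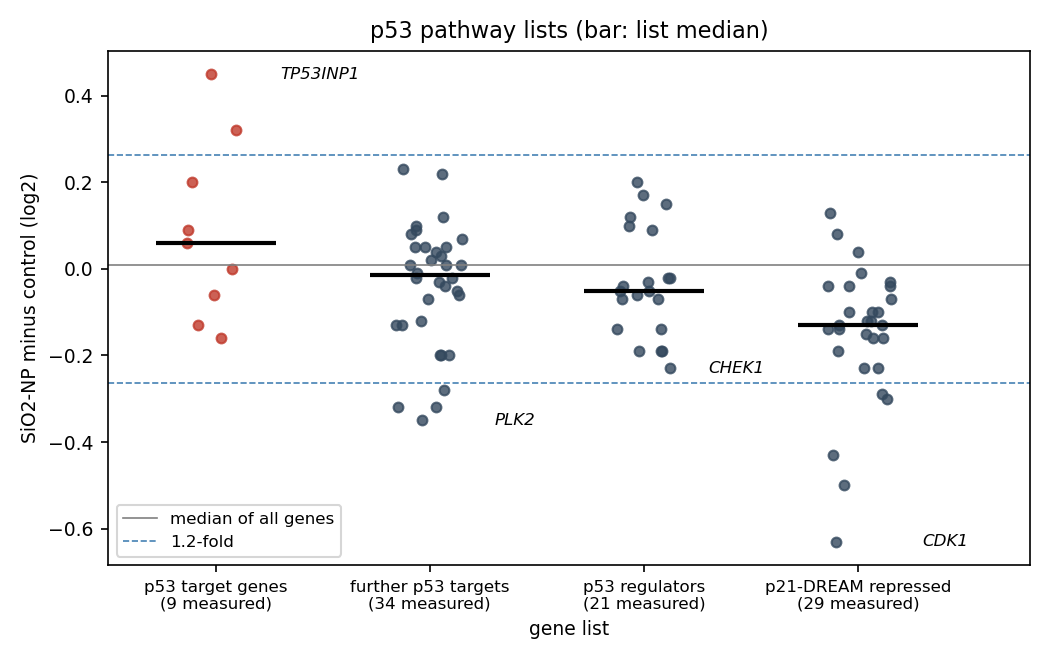
Differences between the SiO2-NP and control arrays (log2) of single genes in 4 lists, with a bar at each list's median, a grey line at the median of all genes and dashed lines at 1.2-fold. The p53 targets lie between -0.16 and 0.45, the further targets between -0.35 and 0.23, the regulators between -0.23 and 0.20, and the p21-DREAM repressed genes between -0.63 and 0.13.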

How the data were processed

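HepG2 RNA was measured on 2 Affymetrix arrays, 1 per group. Per the labels' protocols, about 300 ng of total RNA per sample was turned into biotin-labelled cDNA with a whole-transcript expression kit. The authors deposited 1 log2 intensity per probe; the scale was read from the values (2.08 to 14.4). The tools RMA and MAS5 are named per the submitters' processing notes; the sources used here do not say which of them made these values, or the build behind the probes. RMA equalises the distributions of the arrays, so if it made these values, a general rise or fall of transcripts would be hidden.

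Of 33297 probes, 19460 had 1 gene symbol in the platform annotation, 12083 had none there, and the 1754 with more than 1 were not used; 19429 of the 19460 matched a RefSeq gene and no symbol changed. Probes of a gene were averaged (769 genes had several; each member had 1). No filter was applied to the members. The arrays correlated at r = 0.994 over all probes, and an array has no read depth: the number of arrays limits the precision.

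The members, lists, folds and alternatives were chosen with earlier results of these data known. Named genes are all members and all paralogues, MDM4, PMAIP1 and BAX, and, of the further targets, regulators and DREAM-repressed genes, those past 1.2-fold or else up to 4 with the largest differences per list; genes named beyond this rule, such as the BH3-only, BCL2 family and FAS pathway genes, were chosen after their values were seen. Percentiles among like-level genes describe these arrays and are not tests. Alternatives were 3 scalings, 2 probe rules, 2 level filters, list means, and the members without TP53INP1. Steps were tested on simulated data with added differences larger than 1.5-fold, counted at 1.5-fold, so the calls at 1.2-fold were not tested. Python 3.11.15, pandas 2.3.3, NumPy 2.4.6 and matplotlib 3.10.9 were used.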

Additional observations from a re-analysis of the deposited data

How the results depend on the processing

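With 1 array per group, no difference can be told from variation between cultures, dishes or arrays, and a dim probe cannot be told from an absent transcript. Over 113 recomputed values, 110 kept their sign and moved by less than 0.1 on the log2 scale or, for counts, stayed within 1.5 times. Many of these could not move. Each member had 1 probe, no probe with several symbols named a member, and all 9 measured members passed the level filter. The probe rules and level filters therefore had to return the members' values and counts unchanged, and those cases say nothing about stability. The largest move of a member's difference was 0.06, in SESN1. The sign turned in 3, each close to 0: MDM2 was at -0.01 with each array centred on its median, and the median of the further p53 targets was 0.00 with the running median subtracted and 0.01 with quantile normalization, against -0.01. The scalings differ in how they treat level, and the cause of the turns was not tested. Counts of genes past 1.2-fold were also recomputed for every list under the 3 scalings, a step chosen after seeing the data. They are given beside the lists they changed, except for the cell type markers. There, the fibroblast marker COL1A1 passed 1.2-fold only with quantile normalization. The leukocyte marker CD3E, past it as deposited, fell short with the running median subtracted (0.24). The alternative pseudocounts were not run because the values are log2. No paired analysis was possible because there was 1 array on each side, which also left no replicate to omit.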

Other observations

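The DREAM complex and its relatives, through which p21 lowers cell cycle genes, were mostly below the control at the transcript level. Of 11 subunits and partners, 10 lay below the control, and all 11 were past the level filter, where 59.8% of genes lay below. Their median was -0.12, beside -0.03 over those genes. It was -0.07 with the running median subtracted, where 9 lay below the control, and -0.07 with quantile normalization, where 8 did. At least 1.2-fold lower were 2 of them, beside 7.53% of genes past the filter. LIN9, a MuvB core subunit, read 7.35 in the SiO2-NP array and 7.74 in the control array (-0.39). LIN52, another core subunit, read 9.02 in the SiO2-NP array and 9.29 in the control array (-0.27). Its difference was -0.23 with the running median subtracted and -0.22 with quantile normalization, short of 1.2-fold, which left LIN9 alone. LIN37 differed by 0.06, the one value above the control, while the pocket protein genes RBL1, RBL2 and RB1 differed by -0.18, -0.08 and -0.03.

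The microRNA gene MIR34A, a p53 target outside the lists, was looked up after the other values had been seen. Its product is shown because its seed (bases 2 to 8, in capitals) defines the transcripts it pairs with, in the RefSeq entry at chr1:9151735-9151756 (GRCh38.p14, minus strand).
hsa-miR-34a-5p: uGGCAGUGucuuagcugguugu
The MIR34A probe read 5.37 in the SiO2-NP array and 5.18 in the control array, a difference of 0.19, under the level filter. At that level the central 95% of like-level genes ran from -0.30 to 0.52, so the value lay well inside it. The probe reads the primary or precursor transcript as labelled by this kit, and the mature microRNA was not measured.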
